A study of Homo sapiens with 9 samples.

Results

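INSIG1, SQLE and MSMO1 are 3 genes of the sterol pathway, taken here from 14812 genes with a named row on whole-transcript microarrays. They were chosen by their measured differences between miR-199a-3p and control transfections in earlier results of these same arrays. Their values are therefore given as a description, with no test. The cells were WM266-4, an established human line from a melanoma metastasis, here carrying GFP. Groups of 3 arrays each held cells that were lipofected with a control microRNA at 0.5 nM, with 0.5 nM of a mimic of miR-199a-3p, or with 0.25 nM of that mimic, and RNA was taken 48 h later. Every group received a lipofected small RNA, the 0.25 nM mimic had no control of its own dose, and all the data come from this single line. The labels call the 3 arrays of a group biological triplicates.

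Animal cells make cholesterol from acetyl-CoA through mevalonate, squalene and lanosterol. When sterols are scarce, SCAP carries the SREBP transcription factors from the endoplasmic reticulum to the Golgi, where proteases free their active part, which then switches on genes of sterol synthesis and uptake. INSIG1 holds SCAP in the endoplasmic reticulum when sterols are plentiful and is itself an SREBP target, so it forms a feedback loop. SQLE, squalene epoxidase, carries out the first oxygenation of the pathway. MSMO1, a methylsterol monooxygenase, starts the removal of some of the methyl groups of sterol intermediates, a series of steps that NSDHL and HSD17B7 complete.

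The mimic given to the cells carries the sequence of mature miR-199a-3p, which RefSeq (GRCh38.p14) places at chr1:172144554-172144575 and chr19:10817429-10817450, both on the minus strand. It is shown because its seed, bases 2 to 8 in capitals, sets which transcripts it can pair with.

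miR-199a-3p: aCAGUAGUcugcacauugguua

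The promoter windows of INSIG1 and MSMO1 are shown because both genes are classed as SREBP targets and both lay higher with the mimic, as did SQLE, for which no window is shown. Each runs from 250 bases before to 50 bases after the RefSeq start on the plus strand of GRCh38.p14, at chr7:155297628-155297927 for INSIG1 and chr4:165327419-165327718 for MSMO1. Capitals mark every CCAAT, the letters bound by NF-Y, a partner of SREBP at sterol genes, or its reverse complement ATTGG, and the E-box letters CACGTG.

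INSIG1: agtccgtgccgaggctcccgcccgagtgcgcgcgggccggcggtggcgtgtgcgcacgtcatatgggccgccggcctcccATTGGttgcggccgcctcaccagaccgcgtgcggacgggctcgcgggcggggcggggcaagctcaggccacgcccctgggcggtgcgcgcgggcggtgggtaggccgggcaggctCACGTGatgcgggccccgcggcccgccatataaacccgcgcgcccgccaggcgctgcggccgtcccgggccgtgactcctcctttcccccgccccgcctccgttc

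MSMO1: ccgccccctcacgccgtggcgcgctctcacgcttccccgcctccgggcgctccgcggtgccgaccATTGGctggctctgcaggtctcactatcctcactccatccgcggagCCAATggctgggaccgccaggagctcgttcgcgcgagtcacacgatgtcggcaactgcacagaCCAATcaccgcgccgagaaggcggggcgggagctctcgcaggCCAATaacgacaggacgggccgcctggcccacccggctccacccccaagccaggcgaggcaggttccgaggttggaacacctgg

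The MSMO1 window held 4 CCAAT boxes on either strand and the INSIG1 window 1. Of 27305 genes (first listed RefSeq window of each), 35.7% held at least 1 CCAAT box and 1.06% held more than 3. Among 15 enzymes of sterol synthesis with a window, MSMO1 not counted, 11 held a CCAAT box. The E-box letters CACGTG stood once in the INSIG1 window and were not found in that of MSMO1, against 7.43% of all windows. The GC box GGGCGG or its reverse complement stood 6 times in INSIG1 and 2 times in MSMO1, and in 44.6% of all windows at least once. The letters TCACNCCAC, a form of the sterol regulatory element, were searched on both strands and were in neither window, and were in 1.15% of all windows. Of the same 15 enzymes, 13 held a GC box, 2 the E-box letters and 0 the letters TCACNCCAC. These matches describe letters and not bound sites.

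The deposited values are log2 RMA intensities, a scale on which 1 unit is a doubling of signal. Exactly equal values on all 3 arrays made up 42.0% to 48.6% of rows in each group, while arrays of different groups shared no equal value, so the spread within a group understates the error of a comparison between groups. In the third 0.25 nM array no value has 0 as its first decimal, and values there with fewer than 10 digits were left out (19.1% of genes). No value of INSIG1, SQLE or MSMO1 was among them. For the levels below, each array was moved by a constant until all arrays had equal medians. The 7 measured melanocyte lineage markers, MITF and TYR among them, had mean levels of 8.17 to 12.76, and 10 measured markers of keratinocytes, fibroblasts, leukocytes and endothelium lay at 2.66 to 6.02, below the median of all genes, 6.25. Among the fibroblast markers, DCN, LUM and THY1, the summed level was 13.93 in control, 14.58 at 0.5 nM and 14.62 at 0.25 nM, with THY1 at 0.53 and 0.49 above control and LUM at -0.02 and 0.14. For 5 keratinocyte and epithelial markers the sums were 21.56, 19.92 and 21.58, for the endothelial marker VWF 5.22, 5.13 and 5.59, and for the leukocyte marker CD14 4.88, 4.79 and 4.87. The part of these markers in the results below was not tested.

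All 3 genes lay higher with the mimic at both doses. Every array of both doses lay above every control array for INSIG1, SQLE and MSMO1, a pattern that 22.6% of all genes showed. Since the genes were chosen on these contrasts, nothing is read from that share. INSIG1 and MSMO1 lay higher at 0.25 nM than at 0.5 nM, and SQLE lay at the same level at both doses within its spread.

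INSIG1, the sterol-sensing retention factor, stood at 10.50 on all 3 control arrays, which hold an identical deposited value. At 0.5 nM its arrays read 10.70, 10.69 and 10.69, again tied before the shift. At 0.25 nM they read 10.72, 10.93 and 10.88, so replicate 1 lay close to the 0.5 nM arrays and the others stood apart from them. The group means were 10.50, 10.69 ± 0.0063 and 10.85 ± 0.11 (SD, n = 3 each). INSIG1 thus lay 0.19 above control at 0.5 nM, or 1.14-fold, and 0.35 above it at 0.25 nM, or 1.27-fold, each with a limma SE of 0.048. The lowest 0.25 nM array lay 0.023 above the highest 0.5 nM array, a narrow separation.

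SQLE, which turns squalene into its epoxide, read 9.90 on each control array. It read 10.06, 10.05 and 10.05 at 0.5 nM, and 10.04, 10.03 and 10.07 at 0.25 nM. The mimic arrays of either dose did not overlap with control, whereas the doses overlapped each other. The means were 9.90 ± 0.0018, 10.06 ± 0.0063 and 10.05 ± 0.022 (SD, n = 3 each). All 3 arrays at 0.5 nM hold an identical deposited value, so the SD of 0.0063 comes from the shift alone. Replicates 1 and 2 are also tied in the deposited values of control and of 0.25 nM. The difference from control was 0.15 at both doses (limma SE 0.012), or 1.11-fold, and the means of the doses differed by 0.0098, less than the SD at 0.25 nM.

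MSMO1, the methylsterol oxidase, read 10.04, 10.13 and 9.99 on the control arrays, the widest control spread of the 3 genes. It read 10.23, 10.20 and 10.19 at 0.5 nM. At 0.25 nM it read 10.42, 10.40 and 10.40. The 3 groups did not overlap, and the highest control array lay 0.060 below the lowest 0.5 nM array. The share of all genes with 3 groups apart was not counted, so nothing is read from that. The means were 10.05 ± 0.069, 10.20 ± 0.019 and 10.40 ± 0.0097 (SD, n = 3 each). All 3 arrays at 0.25 nM hold an identical deposited value, so the SD of 0.0097 comes from the shift alone. MSMO1 lay 0.15 above control at 0.5 nM (1.11-fold) and 0.35 above it at 0.25 nM (1.28-fold), each with a limma SE of 0.032.

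**Figure D1:**
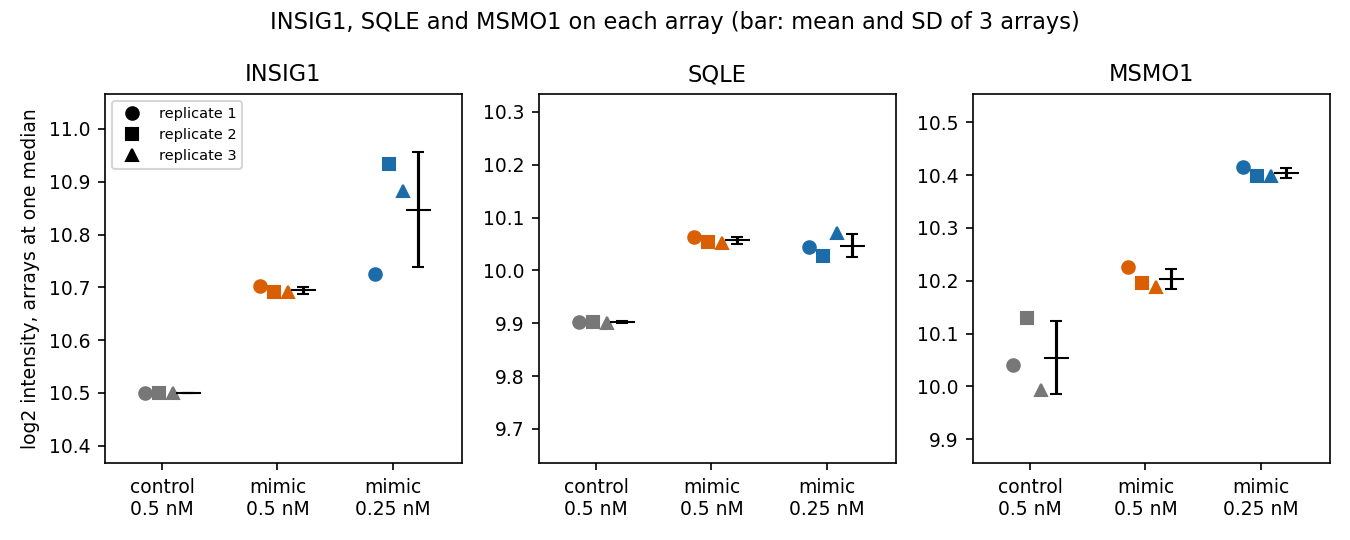
Log2 intensity of INSIG1, SQLE and MSMO1 on each of the 9 arrays, after the shift to equal medians. Symbols mark the replicate number, and the bar beside them gives the mean and SD of 3 arrays. Every mimic array stands above every control array, and INSIG1 at 0.25 nM spreads from 10.72 to 10.93.

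Replicate numbers run across the groups, and same-numbered arrays deviated together over genes. Arrays numbered 2 and 3 also deviated together across numbers, in places more than within them. Within each number, INSIG1 lay above its control by 0.20, 0.19 and 0.19 at 0.5 nM and by 0.23, 0.43 and 0.38 at 0.25 nM. For SQLE these differences were 0.16, 0.15 and 0.15 at 0.5 nM, and 0.14, 0.12 and 0.17 at 0.25 nM. MSMO1 differed by 0.19, 0.067 and 0.20 at 0.5 nM and by 0.38, 0.27 and 0.41 at 0.25 nM, with the smallest values in replicate 2, whose control array was the highest. All 18 differences were above 0. That follows from every mimic array lying above every control array for these chosen genes, so nothing is read from it.

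The size of these differences can be set beside those of all other genes. At 0.5 nM, 23.8% of genes lay further above control than INSIG1, 28.2% further than SQLE and 28.9% further than MSMO1. At 0.25 nM the shares were 10.8%, 27.1% and 10.7%. The spread over the 7406 genes above the median level was 0.21 (SD) for 0.5 nM against control, 0.22 for 0.25 nM against control and 0.21 between the 2 mimic doses. The differences of SQLE were smaller than that spread between cells given the same mimic, as were those of INSIG1 and MSMO1 at 0.5 nM. With each group counted as 1 unit, the mean over both doses lay above control by 0.27 for INSIG1 (SE 0.12), 0.15 for SQLE (SE 0.12) and 0.25 for MSMO1 (SE 0.12). This error is larger than the spread between arrays of a group because it rests on the difference between doses and on genes of similar level.

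**Figure D2:**
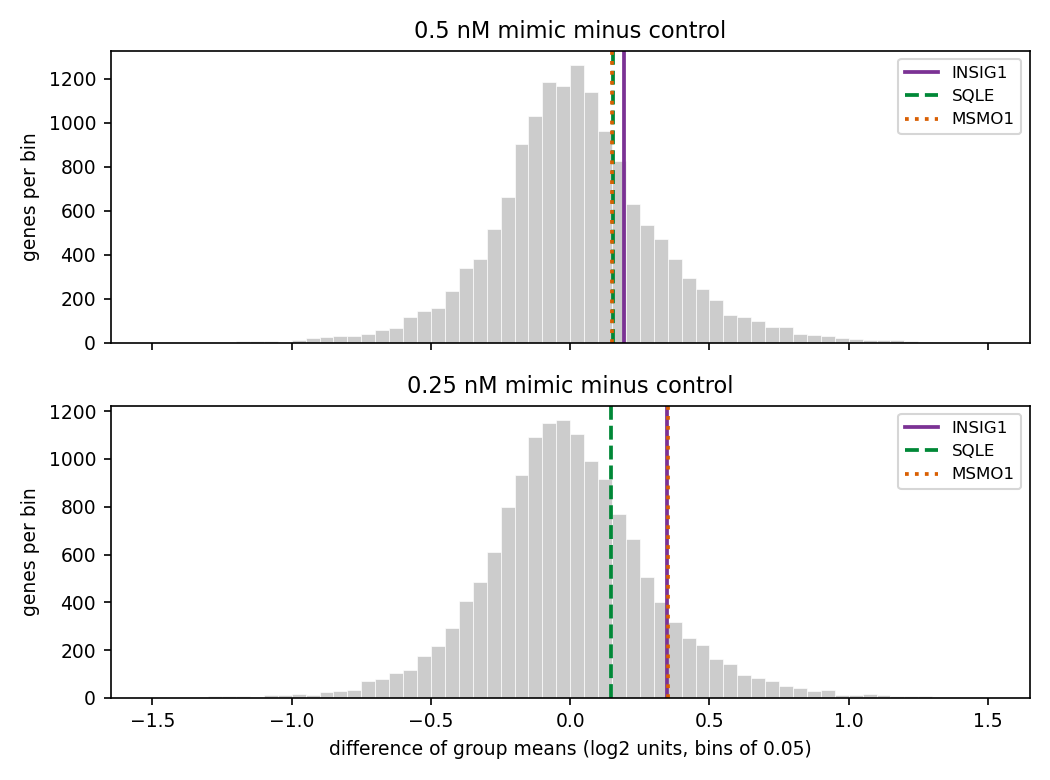
Number of genes by difference from control, in bins of 0.05 log2 units, for 0.5 nM (top) and 0.25 nM (bottom), with vertical lines at INSIG1, SQLE and MSMO1. A further 5 genes at 0.5 nM and 11 at 0.25 nM lie beyond the axis. The lines stand within the shoulder of the distribution, and those of INSIG1 and MSMO1 lie at 0.35 at 0.25 nM.

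The choice of scale moved the differences more than any single array did. Before the shift to equal medians, the mimic arrays as a whole lay higher, by a median over genes of 0.10 at 0.5 nM and 0.14 at 0.25 nM. On that deposited scale INSIG1 lay 0.28 and 0.50 above control at 0.5 nM and 0.25 nM, SQLE 0.24 and 0.30, and MSMO1 0.24 and 0.51. Quantile normalization of the 9 arrays gave 0.19 and 0.38 for INSIG1, 0.18 and 0.16 for SQLE, and 0.16 and 0.37 for MSMO1. The signs were the same under each of these scales, and SQLE alone did not lie higher at 0.25 nM than at 0.5 nM on the shifted and quantile scales.

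**Figure D3:**
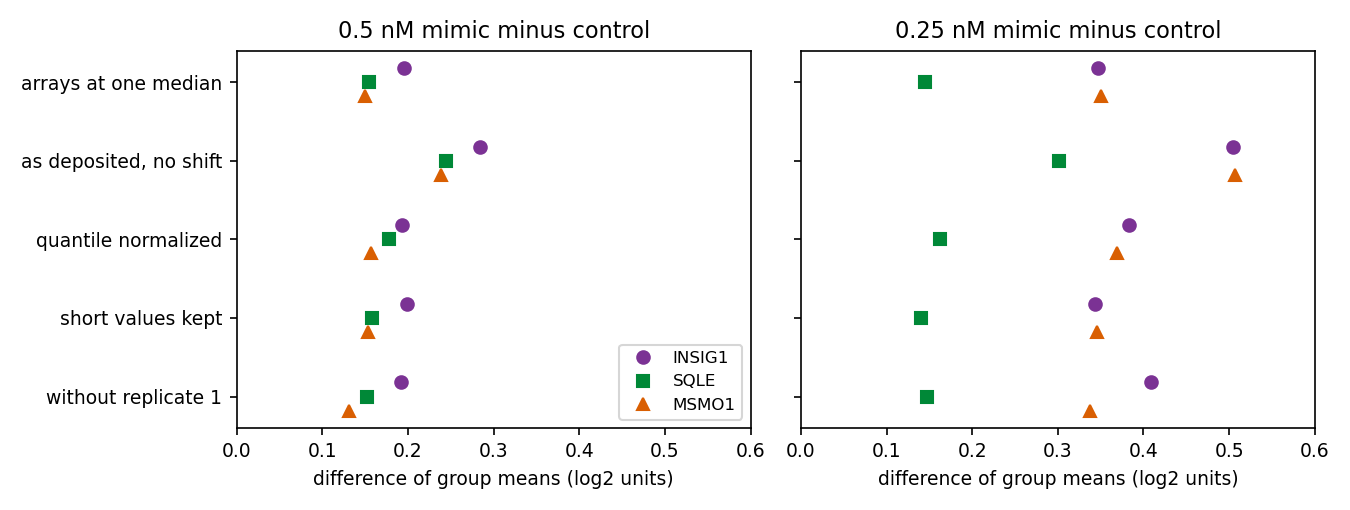
Difference of each group mean from control in log2 units for INSIG1, SQLE and MSMO1, at 0.5 nM (left) and 0.25 nM (right), under 5 settings. Values on the deposited scale lie furthest from 0, up to 0.51, and leaving out replicate 1 of every group moves INSIG1 at 0.25 nM to 0.41.

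The rest of the sterol synthesis pathway did not follow the 3 genes as a block. Of 19 other enzymes listed, 13 had a named row. Of these, 7 lay above control at both doses and 3 below it at both, beside 4899 and 5139 of all 14812 genes. At 0.5 nM, 3 of the 13 were higher and 2 lower in the limma fit of all genes, where 33.2% of genes were called higher and 30.1% lower (adjusted p below 0.05). At 0.25 nM, 4 were higher and 0 lower, against 30.3% and 33.9% of all genes, and 0 were lower at an unadjusted p below 0.05 too. The median differences of the 13 were 0.05 and 0.09, beside 0.0097 and -0.020 over all genes. These counts depend on the scale: on the deposited scale 5 were higher and 1 lower at 0.5 nM, and 8 and 0 at 0.25 nM, where over all genes 6665 were higher and 2973 lower at 0.5 nM, and 7517 and 2529 at 0.25 nM (4917 and 4455, and 4486 and 5025, with arrays shifted). Leaving out replicate 1 of every group gave 6 higher and 4 lower at 0.5 nM and 5 and 4 at 0.25 nM. Over all 14812 genes that setting gave 5359 higher and 5242 lower at 0.5 nM, and 4936 and 5667 at 0.25 nM.

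ACAT2, which joins acetyl-CoA units at the head of the pathway, rose at both doses. Its control arrays read 9.47, 9.38 and 9.38, those at 0.5 nM 9.77, 9.56 and 9.56, and those at 0.25 nM 9.84, 9.79 and 9.82, with no overlap between groups. In 22.6% of all genes every mimic array lay above every control array. The share with all 3 groups apart was not counted, so nothing is read from that. The differences were 0.22 (SE 0.058, limma adjusted p = 0.0135) and 0.40 (limma adjusted p = 5.99e-04), close in size to those of INSIG1. HMGCS1, the HMG-CoA synthase, read 8.29, 8.67 and 8.67 in control, 8.65, 9.23 and 9.10 at 0.5 nM, and 8.34, 8.90 and 8.90 at 0.25 nM. Replicate 1 was the lowest of its group each time, and the groups overlapped. HMGCS1 lay 0.45 and 0.17 above control and did not pass (limma adjusted p = 0.109 and 0.521), but passed at both doses when the replicate number was a block (limma adjusted p = 7.14e-04 and 0.0265).

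FDPS, which makes farnesyl diphosphate, lay 0.20 above control at 0.5 nM (limma adjusted p = 0.0570, and 0.0164 with the replicate block) and rose by 0.30 at 0.25 nM (limma adjusted p = 0.0105; 0.0897 without replicate 1 of every group). The other mevalonate enzymes stayed below the threshold. MVK lay at 0.09 and 0.17, IDI1 at 0.01 and 0.11, PMVK at 0.05 and -0.15, and MVD at -0.03 and -0.12. MVK and IDI1 passed at 0.25 nM on the deposited and quantile scales, where both were higher. Without replicate 1 of every group MVK passed as higher at both doses, and IDI1 passed as lower at 0.5 nM, at -0.05, and as higher at 0.25 nM. MVD lay at 0.06 and 0.04 and PMVK at 0.14 and 0.0034 on the deposited scale. Without replicate 1 of every group PMVK passed as lower at 0.25 nM, at -0.15 (limma adjusted p = 0.0111). The other listed enzymes were not analysed here.

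Among the enzymes after lanosterol, the partners of MSMO1 in demethylation, NSDHL and HSD17B7, were both called lower at 0.5 nM. NSDHL read 8.78, 8.84 and 8.84 in control, 8.42, 8.59 and 8.54 at 0.5 nM, and 8.34, 8.73 and 8.76 at 0.25 nM, so every mimic array lay below every control array. The share of all genes with that pattern was not counted, so nothing is read from it. NSDHL fell by 0.30 at 0.5 nM (limma adjusted p = 0.0484, and 0.169 on the deposited scale) and lay at -0.21 at 0.25 nM (limma adjusted p = 0.148). Without replicate 1 of every group NSDHL passed as lower at both doses, at -0.27 and -0.09 (limma adjusted p = 9.39e-04 and 0.0241). HSD17B7 read 5.95, 6.02 and 6.02 in control, 5.61, 5.60 and 5.60 at 0.5 nM, and 6.30 and 6.29 on the 2 arrays kept at 0.25 nM. It fell by 0.39 at 0.5 nM (limma adjusted p = 5.41e-06) and rose by 0.30 at 0.25 nM (limma adjusted p = 3.72e-05). The doses differed by 0.69 in HSD17B7 (limma adjusted p = 5.83e-07), in a comparison that called 62.2% of all genes. HSD17B7 had a mean level of 5.92, below the median of all genes, 6.25. MSMO1 itself lay above control at both doses, by 0.15 and 0.35.

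TM7SF2, a sterol reductase, rose by 0.54 at 0.5 nM and by 0.09 at 0.25 nM (limma adjusted p = 1.06e-06 and 0.0166; at 0.25 nM 0.138 without replicate 1 of every group). The mean level of TM7SF2 was 5.43, below the median of all genes, 6.25. LBR, a nuclear envelope protein with the same reductase activity, rose by 0.10 at 0.5 nM (limma adjusted p = 0.0462, and 0.0597 with the replicate block) and lay at -0.04 at 0.25 nM, where it was higher by 0.12 on the deposited scale (limma adjusted p = 0.0466). EBP, the sterol isomerase, lay at -0.05 and -0.01, and DHCR7, the last reductase of one branch, at 0.04 and 0.01, none of which passed. On the deposited scale EBP lay above control, at 0.04 and 0.15, and DHCR7 passed as higher, at 0.13 and 0.17 (limma adjusted p = 6.89e-04 and 1.66e-04). Without replicate 1 of every group EBP passed as lower at both doses, at -0.13 and -0.10 (limma adjusted p = 0.0106 and 0.0329). In that setting DHCR7 passed as higher at 0.5 nM and as lower at 0.25 nM, at 0.03 and -0.02 (limma adjusted p = 5.91e-05 and 2.71e-04). With each group counted as 1 unit, a limma fit that called 0.128% of all genes, 0 of the 13 enzymes passed. At an unadjusted p below 0.05 that fit held 2 of them, ACAT2 and HMGCS1, both higher, beside 3.27% of all genes.

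**Figure D4:**
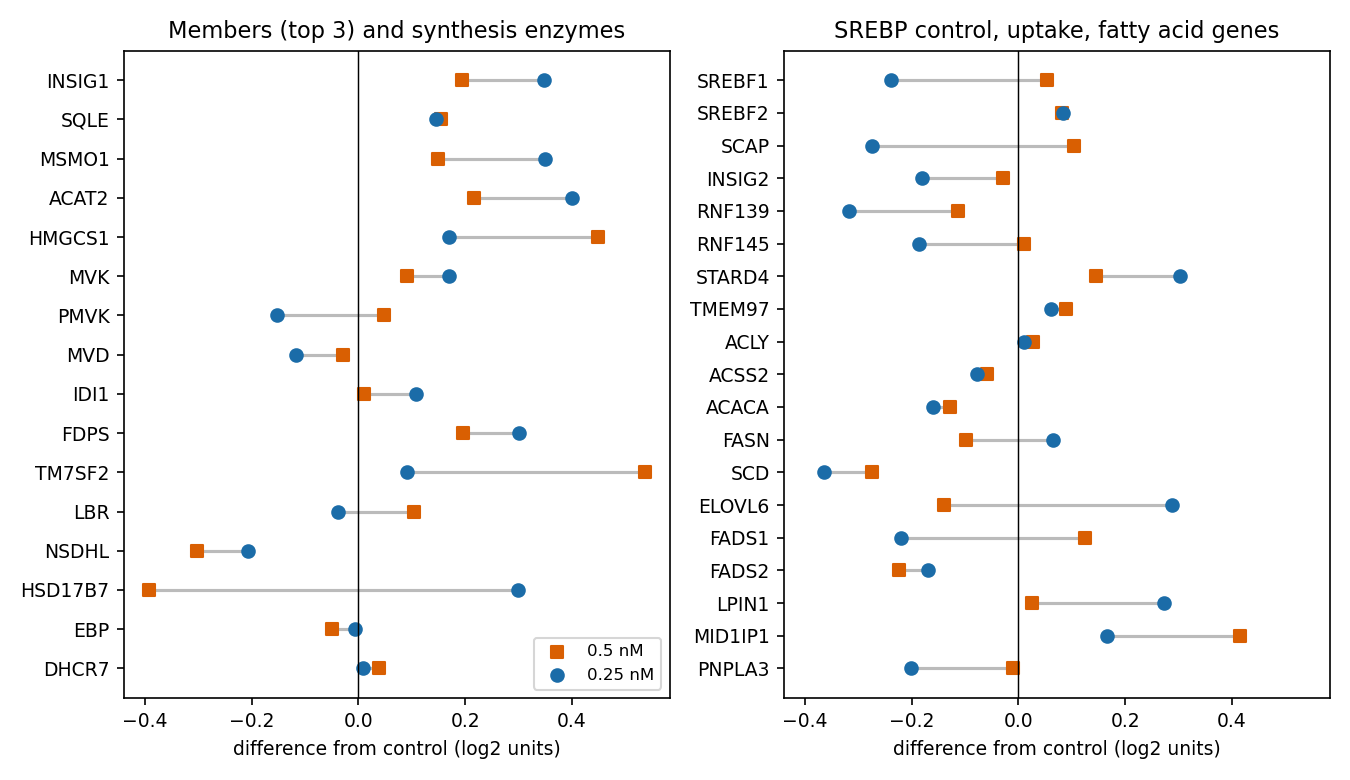
Difference from control in log2 units at 0.5 nM (squares) and 0.25 nM (circles), joined for each gene. The left panel holds INSIG1, SQLE and MSMO1 above the 13 other synthesis enzymes, and the right panel genes of SREBP control, sterol uptake and fatty acid synthesis. ACAT2 lies beside INSIG1 at 0.22 and 0.40, HSD17B7 lies on both sides of 0, and SCD lies at -0.28 and -0.37.

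The genes that control SREBP were called in both directions. Of 11 listed, 6 had a named row: 2 were higher and 1 lower at 0.5 nM, and 1 was higher and 4 lower at 0.25 nM (4 and 1, and 1 and 2, on the deposited scale). Over all genes 33.2% were higher and 30.1% lower at 0.5 nM and 30.3% and 33.9% at 0.25 nM, and on the deposited scale 6665 and 2973, and 7517 and 2529, of 14812. SREBF2, the factor that favours sterol genes, rose by 0.08 at both doses (limma adjusted p = 0.0171 and 0.0159). These calls were lost when the short values of the third 0.25 nM array were kept (limma adjusted p = 0.103 and 0.124). SREBF2 has no short value itself, and it lay at 0.085 and 0.079 in that setting. SREBF1, which favours fatty acid genes, lay at 0.05 at 0.5 nM (0.14 on the deposited scale, limma adjusted p = 0.0110) and fell by 0.24 at 0.25 nM (limma adjusted p = 6.06e-04; 0.0789 on the deposited scale). SCAP, the escort that INSIG1 retains, rose by 0.10 at 0.5 nM and fell by 0.27 at 0.25 nM (limma adjusted p = 2.12e-05 and 8.76e-08). Its arrays within each group differed by the shift alone, so these p-values do not measure spread between replicates. With each group counted as 1 unit, the unadjusted limma p of SCAP was 0.607. INSIG2, the paralog of INSIG1, read 8.32, 7.87 and 7.84 in control and lay at -0.03 and -0.18 with overlapping arrays (limma adjusted p = 0.928 and 0.555).

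RNF139 and RNF145 are ubiquitin ligases of the endoplasmic reticulum that act in sterol-regulated degradation. RNF139 fell at both doses, by 0.11 and 0.32 (limma adjusted p = 1.29e-05 and 4.12e-08), and on the deposited scale it lay at -0.023 and -0.16. As for SCAP, the arrays of RNF139 within each group differed by the shift alone. With each group counted as 1 unit, its unadjusted limma p was 0.207. RNF145 lay at 0.01 and fell by 0.19 at 0.25 nM (limma adjusted p = 0.00128), from 2 arrays kept. With the short value kept it lay at 0.01 there (limma adjusted p = 0.948), and on the deposited scale at -0.03 (limma adjusted p = 0.431). The other listed genes of SREBP control were not analysed here.

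Of 8 genes listed for sterol uptake and transport, 2 had a named row. STARD4, a sterol carrier of the cytosol and an SREBP target, read 8.93 on all 3 control arrays, 9.08, 9.07 and 9.07 at 0.5 nM, and 9.15, 9.26 and 9.29 at 0.25 nM. It rose by 0.15 and 0.30 (limma adjusted p = 0.00645 and 1.27e-04), with the same order of groups as INSIG1 and MSMO1. TMEM97, a sterol-regulated membrane protein, lay at 0.09 and 0.06 (limma adjusted p = 0.194 and 0.365), and passed as higher with the replicate block (limma adjusted p = 0.00871 and 0.0327) and on the deposited scale (limma adjusted p = 0.0353 and 0.0159). Of 8 genes of efflux, storage and the LXR receptors, 4 had a row, with 0 higher and 1 lower at 0.5 nM and 0 and 3 at 0.25 nM. Over all genes 33.2% were higher and 30.1% lower at 0.5 nM, and 30.3% and 33.9% at 0.25 nM. On the deposited scale the 4 genes split 2 and 1, and 1 and 0, beside 6665 and 2973, and 7517 and 2529, of 14812. With arrays shifted, at an unadjusted p below 0.05, 1 of the 4, MYLIP, was higher at 0.5 nM and 0 at 0.25 nM.

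In that group MYLIP, the ligase that degrades the LDL receptor, lay at 0.29 and -0.04 (at 0.5 nM limma adjusted p = 0.0558, and 0.0137 with the replicate block). APOE, a lipoprotein component, lay at 0.09 and fell by 0.21 at 0.25 nM (limma adjusted p = 0.00442; 0.372 on the deposited scale). SOAT1, which esterifies cholesterol, lay at -0.11 at 0.5 nM (limma adjusted p = 0.0198 with the replicate block) and fell by 0.20 at 0.25 nM (limma adjusted p = 0.0438; 0.631 on the deposited scale). LPCAT3, a phospholipid acyltransferase, fell by 0.13 and 0.04, and at 0.25 nM it lay higher instead, at 0.11, on the deposited scale (limma adjusted p = 3.85e-05). In the isoprenoid branches 2 of 8 genes had a row, and 0 passed at either dose, also at an unadjusted p below 0.05. NUS1 lay at 0.01 at both doses and DHDDS at 0.03 and -0.02. On the deposited scale DHDDS passed as higher, at 0.12 and 0.13 (limma adjusted p = 0.020 and 0.0221).

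The fatty acid genes, which SREBP1 drives, were called in both directions. All 11 listed had a row, with 2 higher and 4 lower at 0.5 nM and 4 higher and 6 lower at 0.25 nM, and medians of -0.06 and -0.08. The shares over all genes were 33.2% higher and 30.1% lower at 0.5 nM, and 30.3% and 33.9% at 0.25 nM. On the deposited scale the split was 5 higher and 3 lower at both doses, with medians of 0.03 and 0.08. Over all 14812 genes that scale gave 6665 higher and 2973 lower at 0.5 nM, and 7517 and 2529 at 0.25 nM. The medians over all genes there were 0.10 and 0.14. SCD, the stearoyl-CoA desaturase, read 12.45, 12.42 and 12.42 in control, 12.27, 12.06 and 12.14 at 0.5 nM, and 12.15 and 11.98 on the 2 arrays kept at 0.25 nM. It fell by 0.28 and 0.37 (limma adjusted p = 0.0110 and 0.00525), calls lost when the short value was kept (limma adjusted p = 0.202 and 0.510). FADS2, a desaturase of polyunsaturated fatty acids, fell by 0.22 and 0.17 (limma adjusted p = 2.57e-07 and 1.28e-06), and on the deposited scale it lay at -0.13 and -0.012. Within each group the FADS2 arrays differed by the shift alone, so these p-values do not measure spread between replicates. With each group counted as 1 unit, its unadjusted limma p was 0.296. MID1IP1, a regulator of acetyl-CoA carboxylase, rose by 0.41 and 0.17 (limma adjusted p = 3.86e-05 and 0.00563; at 0.25 nM 0.0951 without replicate 1 of every group). LPIN1, a phosphatidate phosphatase, lay at 0.02 and rose by 0.27 at 0.25 nM (limma adjusted p = 5.36e-04).

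The genes whose pattern over the arrays was most like each of the 3 were sought among 7403 others above the median level, by the root mean squared difference between values centred on each gene's mean. For INSIG1 these were RIT1 (0.025 log2 units), KIZ (0.026), TMTC3 (0.027, over 8 arrays) and TWSG1 (0.031). For SQLE they were MESD (0.0020), SNX30 (0.011) and PEX3 (0.013), over 8 arrays each, and PTK2 (0.013). For MSMO1 they were MRPL33 (0.028), CSPG4 (0.030), FCHSD2 (0.034) and KLHL26 (0.035). Comparisons without a stated number used 9 arrays. INSIG1 and MSMO1 differed by 0.069 on this measure, and SQLE differed from INSIG1 by 0.10 and from MSMO1 by 0.10. None of the 12 genes named is in the sterol lists.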

How the data were processed

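The authors' deposited values are log2 intensities, 1 column per array. Oligo, affy and RMA are named in the submitters' processing notes; their versions and order were not given in the sources used here. All 9 columns matched a sample. Of 44629 rows, 15835 carry 1 gene symbol (0 carry several), all matched by gene ID to RefSeq (GRCh38.p14); 28794 are unnamed here. The brightest row was kept for 651 genes with several rows; INSIG1, SQLE and MSMO1 have 1 row each. Array medians over all rows ran from 4.94 to 5.21, and arrays were set to equal medians over genes with a value on all arrays. The number of arrays limits the precision.

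Genes were tested with limma 3.58.1 (R 4.3.3) in 1 model of 3 group means, two-sided; p-values were adjusted over all 14812 genes by Benjamini-Hochberg, with calls below 0.05. The group-level fit used the 3 group means with an intensity trend. Scripts were tested on simulated data. Same-numbered arrays deviated together across groups (r over genes 0.14 to 0.59 in 9 pairs), and the replicate number was tried as a block. Replicate 1 stood apart: arrays numbered 2 and 3 also correlated across numbers (0.17 to 0.36), in places more than within them. The labels do not say what a number shares, and the main model leaves the replicate number out. The genes and lists were chosen with earlier results of these data known. Of each other list the text names the 2 highest and 2 lowest genes by mean difference over both doses, and all analysed genes of the synthesis and control lists. Alternatives were no shift, quantile normalization, short values kept, the mean of all rows, bright genes only, trend, block and arrays left out.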

Additional observations from a re-analysis of the deposited data

Results flagged for a closer look

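In 4 genes of the lists around INSIG1, SQLE and MSMO1 the 2 doses of mimic lay on opposite sides of control. Each was called against control and between doses, and 62.2% of all genes were called between the doses. Of 14812 genes, 4899 lay above control at both doses and 5139 below it at both. The share of all genes called on opposite sides was not counted, so the 4 are not shown to be unusual. HSD17B7, a partner of MSMO1, lay 0.69 higher at 0.25 nM than at 0.5 nM (-0.39 and 0.30 from control, 2 arrays kept at 0.25 nM; limma adjusted p = 5.83e-07). SCAP, the protein that INSIG1 retains, lay lower by a difference of -0.38 (0.10 and -0.27; limma adjusted p = 1.78e-08). Within each group the SCAP arrays differed by the shift alone, so this p-value does not measure spread between replicates. FADS1, a fatty acid desaturase, differed by -0.35 (0.13 and -0.22; limma adjusted p = 6.94e-06). FASN, the fatty acid synthase, differed by 0.16 (-0.10 and 0.07; limma adjusted p = 5.47e-05). On the deposited scale FASN at 0.5 nM (-0.0083, limma adjusted p = 0.712) and FADS1 at 0.25 nM (-0.06, limma adjusted p = 0.0647) were not called. FASN at 0.25 nM was not called with short values kept (limma adjusted p = 0.0736). It has no short value itself, and it lay at 0.06 in that setting. HSD17B7 had a mean level of 5.92, below the median of all genes, 6.25. Groups of 3 arrays are too small for a check of single outlying arrays.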

How the results depend on the processing

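The differences of INSIG1, SQLE and MSMO1 from control kept their sign under the other scalings, the row choice, the kept short values and each array left out. Without the shift they were 0.28 and 0.50 (0.5 nM and 0.25 nM) for INSIG1, 0.24 and 0.30 for SQLE, and 0.24 and 0.51 for MSMO1; quantile normalization gave 0.18 for SQLE at 0.5 nM. Genes called numbered 9372 (0.5 nM), 9511 (0.25 nM) and 9210 (between doses), and 3787, 3944 and 3645 with bright genes only, which tests fewer genes. The group-level fit called 19 genes, 0 without the shift, with quantile normalization or without the trend, 35 with short values kept, 39 with the mean of all rows, 0 to 47 with 1 array left out (0 without 0.25 nM replicate 1) and 2 without replicate 1 of every group; the cause was not tested. Sterol enzymes called numbered 5 at 0.5 nM (1 with bright genes only, 3 to 7 with 1 array left out, 10 without replicate 1 of every group) and 4 at 0.25 nM (8 without the shift, 2 with bright genes only, 9 without replicate 1 of every group). With the replicate block they numbered 6 and 5; among the listed genes it changed the calls of HMGCS1, FDPS, LBR, TMEM97, MYLIP and SOAT1 given above and no other. Of all 14812 genes, 10601 at 0.5 nM and 10603 at 0.25 nM were called without replicate 1 of every group. With the replicate block 9725 and 9982 were called. Leaving out replicate 1 was chosen after the data were seen. The ties within groups limit what p-values over these arrays can show.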
